A study of Mus musculus with 10 samples.

Results

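The kinase gene Zap70 and the genes of the T cell receptor complex were followed in whole kidney of old mice. Every probe set was taken whose platform annotation gave exactly 1 gene symbol equal to Zap70, Cd3e, Cd3g, Cd3d, Cd4, Cd8a, Lck or Cd247, with no filter on brightness. This gave 17 probe sets of 7 genes, out of 45037 probe sets and 18193 named genes on the array. Cd8a had 5 of them, Cd247 had 4, Zap70 had 3, Cd4 had 2, and Cd3e, Cd3g and Cd3d had 1 each. No probe set had Lck as its single symbol in the annotation used, and Lck was not analysed here. Zap70 was chosen by the higher signal of its brightest probe set under calorie restriction in an earlier fit of these same arrays. Its diet difference is therefore a description with no test. The other genes were chosen for their role in the receptor.

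The kidneys came from male C57BL/6 mice aged 30 months, of which 5 were on a long-term Calorie Restricted diet and 5 on a control diet, with 1 mouse per Affymetrix array. The study asks how the kidney's transcripts respond to that diet. How strong the restriction was, and for how long it ran, is not stated in the labels. All values below are log2 of the authors' MAS5 signal, a brightness per probe set, unless they are called signal units. The kidney label fitted the arrays: 12 of 12 measured kidney markers, among them the urine protein gene Umod and the phosphate transporter gene Slc34a1, lay above the background level defined below.

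A T cell recognises antigen with a receptor whose signal is carried by the CD3 chains (Cd3e, Cd3g, Cd3d) and the zeta chain (Cd247). The co-receptors CD4 and CD8 bring the kinase LCK to the receptor, and LCK phosphorylates the tails of these chains. ZAP-70 docks on the phosphorylated tails and passes the signal on through the adaptors LAT and SLP-76 (Lcp2). In kidney these transcripts are known mainly from the lymphocytes that lie between the tubules, and ZAP-70 is also known from natural killer cells. In whole tissue, fewer cells of a type and less RNA per cell cannot be told apart.

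Most of these probe sets were dim. The background level was set from 28 measured genes that kidney is not expected to express, such as sperm protamines and milk caseins, as the 90th percentile of the mean log2 signal of their 43 probe sets. It came to 6.71, or 105 signal units, and 48.5% of all probe sets lay at or under it. Of the 17 probe sets 13 did so too. The 4 above it were Zap70 1439749_at, Cd3g 1419178_at and Cd8a 1440164_x_at and 1444078_at, and the same 4 stood above the median brightness of all probe sets. By their brightest probe set, 23 of the 28 genes not expected in kidney were at or under this level. Of the rest, Actl7b, Amelx (7.68) and Omp (7.25) were brighter on average than Cd3g (7.24) and Cd8a 1444078_at (7.14). Cd3g and Cd8a 1444078_at thus lay within the range of these genes, and the level alone does not show that they were detected. Cd3e, Cd3d, Cd4 and Cd247 were near background with every probe set they have.

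The brightest Zap70 probe set, 1439749_at, read 9.87, 10.29, 10.34, 10.30 and 9.90 on calorie-restricted replicates 1 to 5, against 8.09, 8.76, 9.35, 9.54 and 9.82 on control replicates 1 to 5. All 5 restricted kidneys lay above all 5 controls, but the lowest restricted value exceeded the highest control by 0.055. The restricted arrays stood close together, and the controls were widely spread.

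In signal units this probe set averaged 1140 ± 178 in calorie-restricted kidney and 601 ± 250 in control kidney (SD, n = 5 each). On the log2 scale the means were 10.14 ± 0.23 in calorie-restricted kidney and 9.11 ± 0.69 in control kidney. The difference was 1.03 ± 0.26 (SE), a 2.04-fold higher geometric mean. This is the value that led to the choice of Zap70, and nothing is supported with it. Non-overlapping higher values were found in 2.43% of all probe sets.

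The other 2 Zap70 probe sets gave no such separation. Probe set 1422701_at, which the platform annotation ties to the Zap70 reference transcript, read 6.75, 7.0, 4.90, 6.56 and 6.94 on the calorie-restricted arrays, against 6.20, 6.03, 3.96, 6.48 and 7.07 on the control arrays. No restricted kidney exceeded the highest control, and the difference was 0.49 ± 0.56. Probe set 1440178_x_at has a suffix that marks probes that can bind other transcripts. It averaged 6.77 ± 0.46 in calorie-restricted kidney and 6.43 ± 0.39 in control kidney (SD, n = 5 each), with 1 restricted array above all controls. Its difference was 0.34 ± 0.30. Both were near background, and the near-background probe sets of the whole array had a median difference of 0.15. For the bright probe set the annotation names Zap70 but gives no sequence accession.

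Across the 10 arrays the bright probe set had a Pearson r of 0.17 with 1422701_at and of 0.45 with 1440178_x_at. After each group's mean was taken out, r was -0.035 and 0.24. These correlations are descriptions over 10 arrays. The mean of the 3 Zap70 probe sets differed by 0.62 ± 0.24. This mean includes the probe set that led to the choice of Zap70, so it too is only a description.

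**Figure D1:**
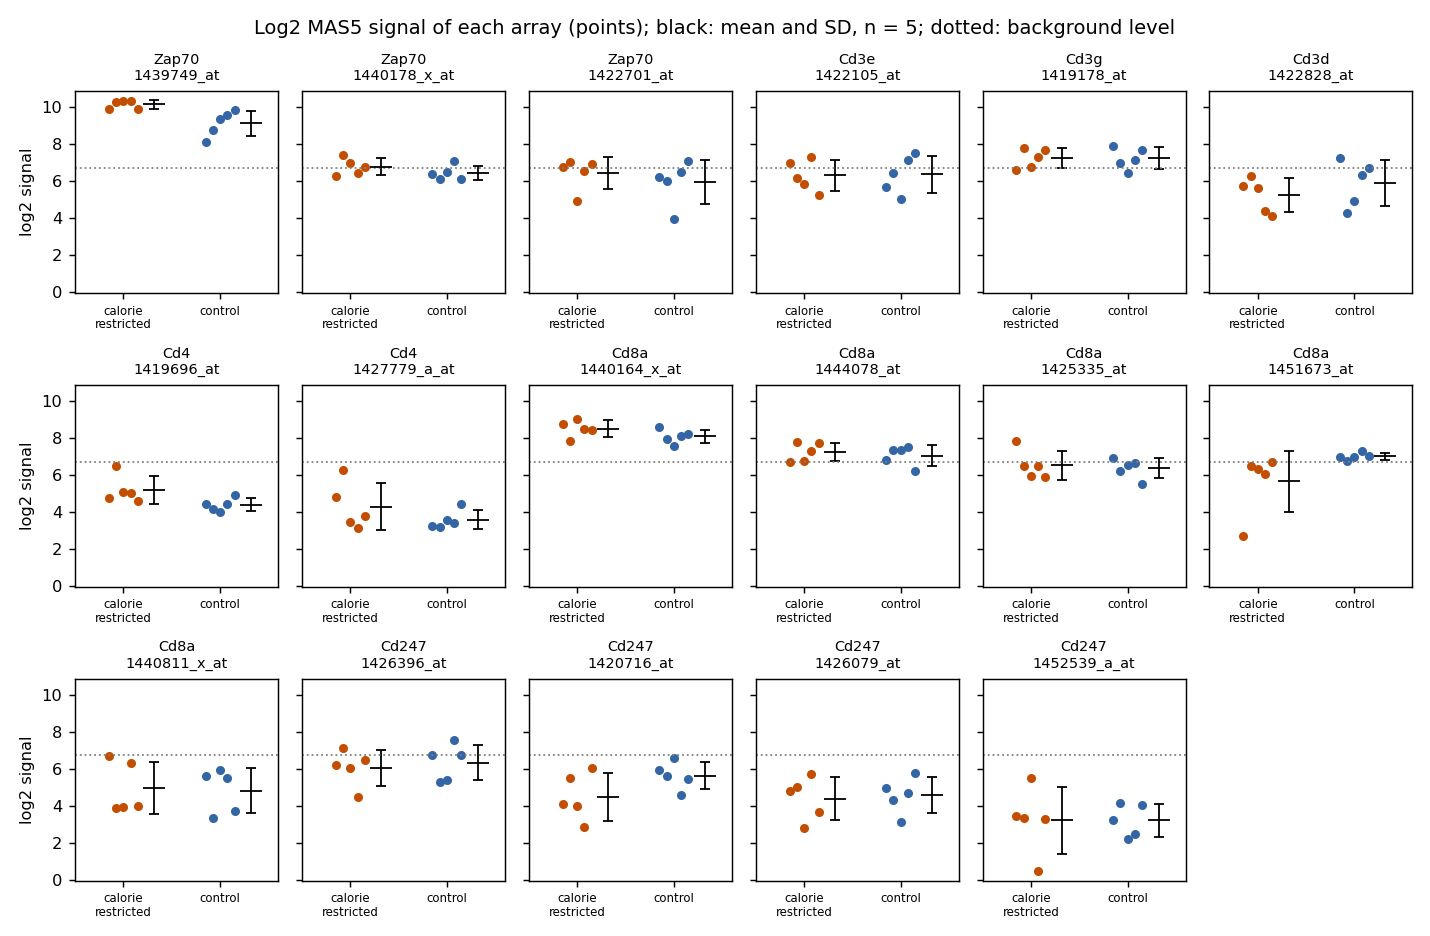
Log2 MAS5 signal (vertical axis) of each of the 17 probe sets on the calorie-restricted arrays (left, orange) and the control arrays (right, blue), 1 point per mouse, with the mean and SD (n = 5) in black and the background level of 6.71 dotted. Zap70 1439749_at stands well above the dotted line with all restricted points above all controls, while 13 of the 17 probe sets have means at or under the line.

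RNA quality moved with diet and, among the controls, with this probe set. For Gapdh and Actb the array carries control probe sets at either end of the transcript, and the mean log2 ratio of the 3' over the 5' signal rises as RNA is shorter or labelling less complete. It averaged 1.67 ± 0.46 in calorie-restricted kidney and 1.05 ± 0.26 in control kidney (SD, n = 5 each). Among controls it was highest in replicates 4 and 5, at 1.39 and 1.25, against 0.91, 0.76 and 0.94 in replicates 1, 2 and 3. The same 2 controls had the highest signal of Zap70 1439749_at, 9.54 and 9.82.

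Calorie-restricted replicates 4 and 5 had ratios of 1.24 and 1.16, within the control range, and Zap70 signals of 10.30 and 9.90. Among restricted arrays the signal did not follow the ratio, since replicate 1 had the highest ratio, 2.21, and the lowest Zap70 signal, 9.87. Replicates 4 and 5 of each diet alone gave a Zap70 difference of 0.42, against 1.43 for replicates 1 to 3 alone. Calorie-restricted replicates 4 and 5 set against all controls gave 0.99 ± 0.38, and a fit with this RNA ratio as a term gave 0.76 ± 0.35. As the groups of this probe set do not overlap, any subset of the arrays had to give a difference above 0. The part of RNA quality in the difference was not tested beyond these values.

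**Figure D2:**
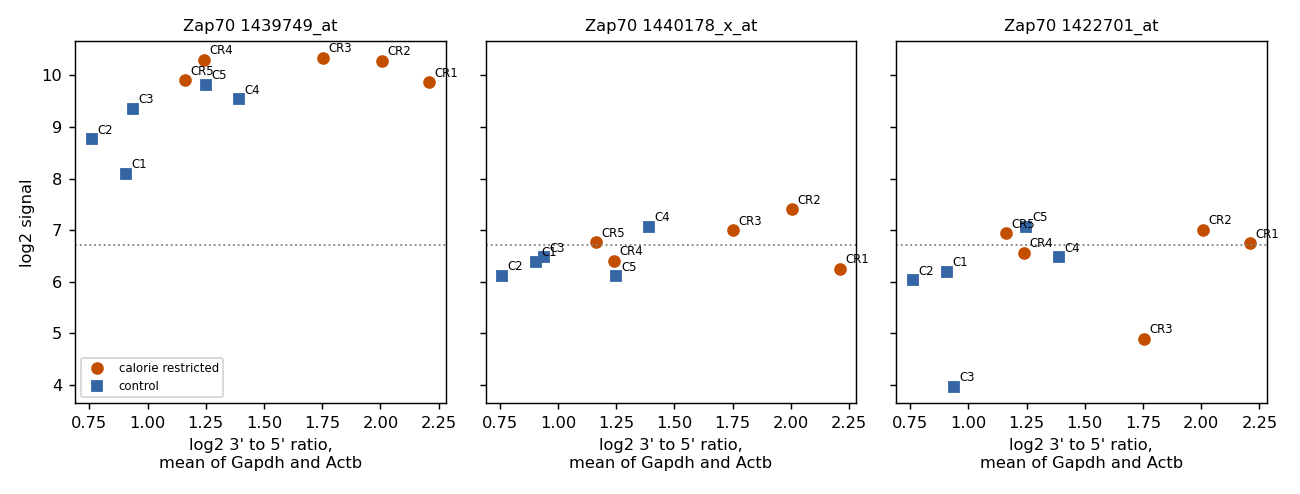
Log2 signal (vertical axis) of the 3 Zap70 probe sets against the mean log2 3' to 5' ratio of Gapdh and Actb (horizontal axis) on each array, with calorie-restricted arrays as circles, control arrays as squares and the background level dotted. In the left panel the controls with the lowest ratios (C1, C2 and C3) have the lowest Zap70 signals. There CR4 and CR5, with ratios of 1.24 and 1.16, lie above C4 and C5. That was fixed in advance, since all restricted values of this probe set lie above all controls.

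None of the genes that build the receptor passed the test between the diets. In the limma fit over all probe sets, 0 of the 14 probe sets of Cd3e, Cd3g, Cd3d, Cd4, Cd8a and Cd247 had an adjusted p under 0.05, where 0.637% of all probe sets did. At an unadjusted p under 0.05 there was 1 of 14, against 17.1% of all probe sets. Of the 14, 6 were above 0 and 8 below, with a median difference of -0.0080, beside 0.049 over all probe sets. Near-background probe sets of the whole array had a median of 0.15.

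Among the CD3 chains, which pair with each other in the receptor, only Cd3g was above the background level. Cd3g read 6.61, 7.80, 6.78, 7.32 and 7.66 on the calorie-restricted arrays, against 7.91, 6.99, 6.43, 7.16 and 7.70 on the control arrays. The diets overlapped over nearly their whole range. The difference was -0.0020 ± 0.32 (adjusted p = 0.998), with a 95% interval of -0.68 to 0.67, so differences of these sizes lie within the interval.

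Cd3e, the chain that antibodies against CD3 commonly bind, read 6.99, 6.15, 5.84, 7.27 and 5.24 on the calorie-restricted arrays, against 5.65, 6.42, 5.05, 7.16 and 7.49 on the control arrays. It differed by -0.056 ± 0.51 (adjusted p = 0.971), and high and low arrays occurred in both diets. Cd3d read 5.76, 6.29, 5.65, 4.41 and 4.10 on the calorie-restricted arrays, against 7.23, 4.30, 4.89, 6.33 and 6.72 on the control arrays. It differed by -0.65 ± 0.61 (adjusted p = 0.639), with a 95% interval of -1.97 to 0.66. With the RNA ratio as a term Cd3d was -1.93 ± 0.69 and Cd3e -0.69 ± 0.67, and with replicates 4 and 5 of each diet they were -2.27 and -1.07. The adjusted p of Cd3d was 0.303 to 0.853 over its alternatives. Both are near background. The CD3 genes lie side by side on chromosome 9, and over the 10 arrays r was 0.38 between Cd3g and Cd3d, 0.24 between Cd3e and Cd3d and 0.085 between Cd3e and Cd3g.

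The zeta chain gene Cd247 had 4 probe sets, all near background. Their means were 3.20 to 6.05 in calorie-restricted kidney and 3.22 to 6.33 in control kidney. The brightest, 1426396_at, differed by -0.28 ± 0.53, and by -1.27 ± 0.63 with the RNA ratio as a term. The widest difference was that of 1420716_at, at -1.15 ± 0.61 (adjusted p = 0.36), with 3 of 5 restricted arrays below all controls. Their adjusted p ran up to 0.996 for 1452539_a_at, which differed by -0.014 ± 0.80.

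The co-receptor Cd4, which marks helper T cells and is also found on some macrophages, was near background with both probe sets. Probe set 1419696_at read 4.73, 6.46, 5.10, 5.00 and 4.57 on the calorie-restricted arrays, against 4.40, 4.18, 4.01, 4.44 and 4.91 on the control arrays. Restricted replicate 2 stood apart, and 3 of 5 restricted arrays were above all controls. The difference was 0.78 ± 0.46 (adjusted p = 0.414), and 1427779_a_at differed by 0.72 ± 0.62 (adjusted p = 0.603). Without restricted replicate 2 they were 0.46 and 0.22, and with the RNA ratio as a term 0.34 and -0.33. The same 2 probe sets had an r of 0.79 over the 10 arrays. Restricted replicate 2 was the highest array of both, at 6.46 and 6.28, and weighs heavily on this r.

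The co-receptor Cd8a, which marks cytotoxic T cells, had 5 probe sets that did not all move together. The brightest, 1440164_x_at, read 8.74, 7.85, 9.04, 8.46 and 8.41 on the calorie-restricted arrays, against 8.57, 7.94, 7.58, 8.08 and 8.22 on the control arrays, with 2 restricted arrays above all controls. It differed by 0.42 ± 0.23 (adjusted p = 0.366), and its suffix marks probes that can bind other transcripts. Probe set 1444078_at, also above the background level, differed by 0.20 ± 0.31 (adjusted p = 0.797), and the r between these 2 was -0.50.

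Cd8a 1451673_at went the other way. It read 2.69, 6.47, 6.34, 6.05 and 6.67 on the calorie-restricted arrays, against 6.96, 6.76, 6.94, 7.31 and 7.0 on the control arrays. All restricted arrays lay below all controls, as in 2.01% of all probe sets, and restricted replicate 1 stood far under the rest. The difference of -1.35 ± 0.62 did not pass (adjusted p = 0.282, unadjusted p = 0.0463), and without that array it was -0.61. With the RNA ratio as a term in the fit it was -0.37. The probe set lies near background, and its r with Cd8a 1425335_at, named from the same accession, was -0.71. Restricted replicate 1, the lowest array of 1451673_at, was the highest array of 1425335_at, at 7.83, so it weighs heavily on this r. In contrast, 1425335_at and 1440811_x_at, both near background, had an r of 0.76 over the 10 arrays. They differed by 0.15 ± 0.40 and 0.14 ± 0.73. Restricted replicate 1 was the highest array of both. The mean of the 5 Cd8a probe sets differed by -0.089 ± 0.23.

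**Figure D3:**
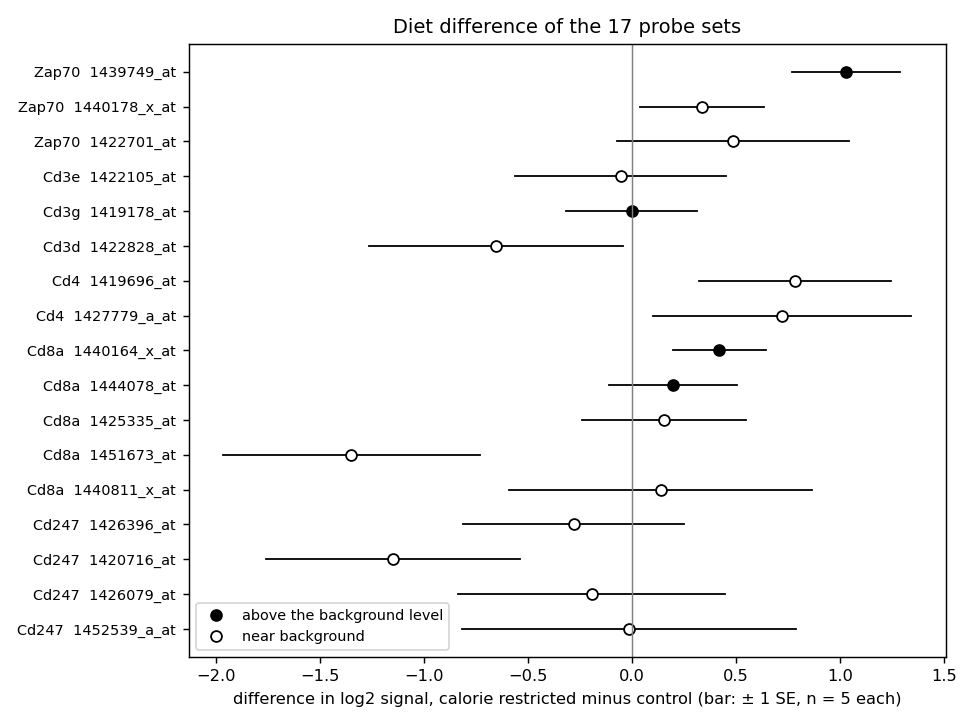
Difference in log2 signal, calorie restricted minus control (horizontal axis), for each of the 17 probe sets, with bars of 1 SE (n = 5 each) and open circles for probe sets near background. Zap70 1439749_at lies at 1.03, the other Zap70 probe sets at 0.34 and 0.49, and the receptor genes scatter from -1.35 to 0.78 on both sides of 0.

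Genes that act beside or after ZAP-70 in the receptor pathway did not pass the test either. Of 49 further pathway genes 46 were measured, each taken by its brightest probe set. In limma 0 had an adjusted p under 0.05, with 22 above 0, 24 below and a median of -0.073. At an unadjusted p under 0.05 there were 13 of 46. Over all genes taken the same way, 0.874% passed, 20.4% had an unadjusted p under 0.05 and the median was 0.019. The 3 with the smallest p were the adaptor Sla, which lowers receptor signalling, the suppressor Ubash3a, and the lipid kinase Dgkz, which removes diacylglycerol. Sla averaged 7.54 ± 0.16 in calorie-restricted kidney and 8.23 ± 0.49 in control kidney (SD, n = 5 each), a difference of -0.69 ± 0.22 (adjusted p = 0.127). Ubash3a differed by 1.93 ± 0.62 (adjusted p = 0.134) near background, and Dgkz by 0.48 ± 0.16 (adjusted p = 0.154). All these are values of whole kidney and need not come from T cells. Ptprc, Ptpn6 and Was, for example, are also in the pan-leukocyte list.

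In 3 of the 46 genes all restricted kidneys lay below all controls, and in 0 above, where 2.65% of all genes lay wholly below. These were Sla and the adaptors Fyb and Nck2, the last 2 named after their values were seen. Fyb differed by -0.52 ± 0.19 (adjusted p = 0.185) and Nck2 by -0.28 ± 0.12 (adjusted p = 0.243). Syk, the kinase of the same family as Zap70, also named outside the rule, differed by -0.19 ± 0.23 (adjusted p = 0.73). The adaptors Lat (-0.62 ± 0.42) and Lcp2 (-0.17 ± 0.20), which ZAP-70 phosphorylates, had adjusted p of 0.495 and 0.734.

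Other markers of T cells had no gene past the threshold, and some, among them Lat and Sit1, are also in the pathway list. Of 36 listed markers 26 were measured and 15 of them were near background. In limma 0 passed, and 0 had an unadjusted p under 0.05. Of the 26, 14 were above 0 and 12 below, and the median was 0.095. Their summed signal was 3024 to 4015 units on calorie-restricted arrays and 3150 to 4124 on control arrays, so the ranges overlapped nearly fully. The smallest p belonged to the adaptor Sit1 (0.53 ± 0.26, adjusted p = 0.319), the GTPase Gimap3 (-0.30 ± 0.17, 0.375) and the CD45-associated protein gene Ptprcap (-0.39 ± 0.22, 0.40). Natural killer and cytotoxic markers, the other known source of Zap70, passed in 0 of 14 cases (1 at an unadjusted p under 0.05), with a median of 0.16 and 8 near background. Their summed signal was 1153 to 2438 units on calorie-restricted arrays and 1299 to 2051 on control arrays. The chemokine Ccl5, the brightest, differed by -0.032 ± 0.51. The killer cell receptor Ncr1 was near background.

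Markers of white cells in general were lower rather than higher where they passed. Beside 0.874% of all genes passing and 20.4% at an unadjusted p under 0.05, 1 of 14 pan-leukocyte markers fell (7 unadjusted), the tetraspanin Cd53 (-0.67 ± 0.12, adjusted p = 0.0372), and the median was -0.41. Their summed signal was 7516 to 10098 units on calorie-restricted arrays and 8400 to 14826 on control arrays. Of 19 macrophage and dendritic markers 2 fell (10 unadjusted), with a median of -0.51. These were Mpeg1 (-1.02 ± 0.17, adjusted p = 0.0295) and Ctss (-0.63 ± 0.13, adjusted p = 0.0497), the last close to the threshold of 0.05. B cell and plasma cell markers had 0 of 16 past the threshold (5 unadjusted) and a median of -0.38, and neutrophil markers 0 of 8 (3 unadjusted) and -0.29. Of 7 adipocyte markers Fabp4 fell (4 unadjusted) and the median was -0.77, and of 6 red cell markers 0 passed (3 unadjusted) with a median of 0.30. Of 12 kidney markers 1 rose (8 unadjusted), the kidney androgen-regulated protein gene Kap (0.74 ± 0.13, adjusted p = 0.0295), 11 were above 0 and the median was 0.37. With the RNA ratio as a term in the fit, 4 of all probe sets passed, against 287 without it. The part of these cell types in the Zap70 values was not tested.

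Among the genes compared, those whose pattern was most like the bright Zap70 probe set were not T cell genes of the lists. Dimmer genes were not compared. This left out Cd3e, Cd3d, Cd4, Cd247 and at least the 15 near-background genes of the 26 other T cell markers. Among 12195 other genes above the median brightness, by Pearson r over the 10 arrays, the 5 highest were the long noncoding RNA Gm3764 (0.98), the glycosyltransferase Pomgnt1 (0.94), the RNA-binding protein gene Larp1 (0.92), Mospd3 (0.92) and the membrane protease St14 (0.91). Gm3764 1455624_at read 8.29, 8.51, 8.40, 8.23 and 8.08 on the calorie-restricted arrays, against 6.44, 7.16, 7.63, 7.87 and 8.14 on the control arrays. Its lowest and highest controls were those of Zap70, replicates 1 and 5, and the diets overlapped by 1 restricted array. With group means taken out, its r with Zap70 was 0.97, and those of the other 4 were 0.83 to 0.90. In RefSeq, Gm3764 lies on chromosome 3 and Zap70 on chromosome 1. The r of the bright Zap70 probe set was -0.12 with Cd3g and 0.20 with Cd8a 1440164_x_at.

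Cd3g followed other genes. The 5 most like it were the MHC class II loader H2-DMa and the tubulin acetyltransferase Atat1 (0.92 each), the GTPase Gimap7 and the lymphotoxin gene Ltb (0.89 and 0.88) and the T cell receptor segment Trav9d-3 (0.88). With group means taken out, these r values were 0.88 to 0.94. Trav9d-3 averaged 8.50 ± 0.29 in calorie-restricted kidney and 8.32 ± 0.36 in control kidney (SD, n = 5 each), a difference of 0.18 ± 0.19. Ltb averaged 7.69 ± 0.43 in calorie-restricted kidney and 7.69 ± 0.91 in control kidney. Control replicates 1 and 5, both high for Cd3g, were the lowest and the highest control for Zap70 1439749_at. All these r values describe 10 arrays that share their RNA and scaling, and they were taken as the highest over all the genes compared.

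**Figure D4:**
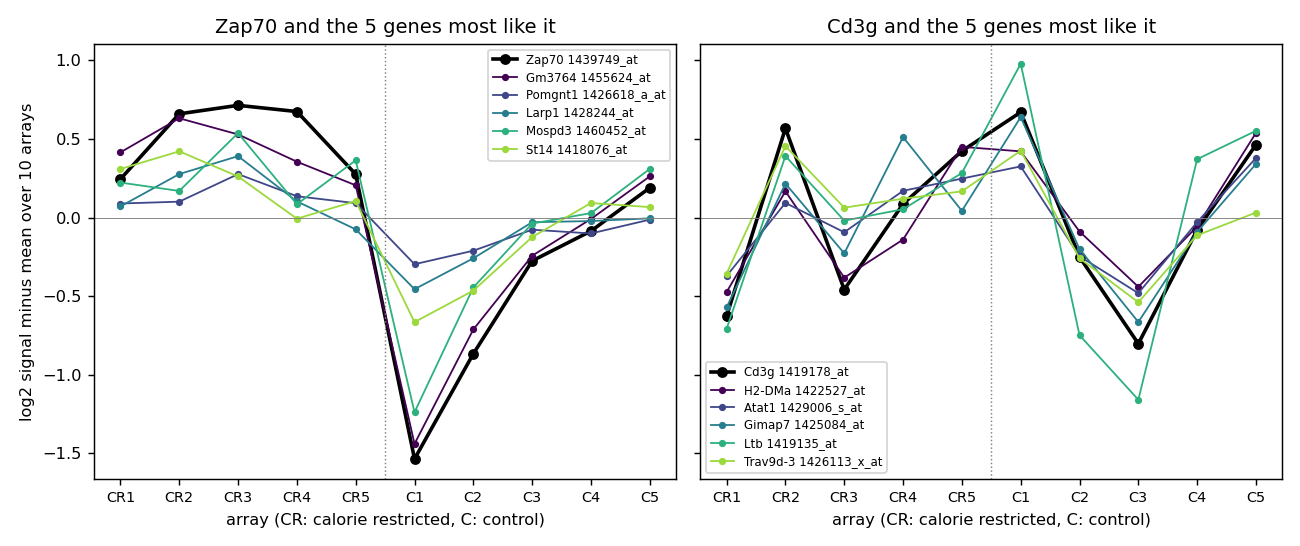
Log2 signal minus the gene's mean over 10 arrays (vertical axis) on each array (horizontal axis; CR calorie restricted, C control, lines only join points of a gene) for Zap70 1439749_at, left, and Cd3g 1419178_at, right, each in black with the 5 genes most like it in colour. Zap70 and Gm3764 share their lowest array, C1, while Cd3g and its 5 genes are above their means on C1 and C5 and below them on CR1 and C3.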

How the data were processed

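The authors deposited 1 linear MAS5 intensity per probe set and array. Per the submitters' processing notes the tool was Affymetrix Expression Console, with no version stated. Total RNA, 5 ug per mouse, was labelled with biotin, per the labels' protocols. The deposited intensity values had a trimmed mean of 500.00 on every array once 2% of probe sets were trimmed at each end, and a median of 115 to 136. Detection calls were not used here, so background was judged from the signals, and the number of arrays limits the precision.

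Signals under 1 were set to 1 (922 values) and log2 was taken. The 64 Affymetrix controls were left out and 45037 probe sets were fitted without a brightness filter. Of all 45101 probe sets 34958 had 1 symbol, 932 several and 9211 none; 34741 had gene IDs in RefSeq (assembly GRCm38.p6), which changed 0 symbols. Limma 3.58.1 in R 4.3.3 (lmFit, eBayes with trend, 2-sided) tested calorie restricted minus control, with Benjamini-Hochberg adjustment over all probe sets. Its intervals use the fit's moderated SE. The fit was also run on simulated data with independent normal noise and no diet-linked RNA ratio, so that run does not bear on the ratio.

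Members, gene lists, alternatives and the named-gene rule were chosen with earlier results of these data known. The rule names all members, up to 6 called genes or otherwise the 3 smallest p in the pathway and T cell lists, and the 5 genes with the highest r. Lists were those of kidney, T, natural killer, B, macrophage, neutrophil, pan-leukocyte, red cell and adipocyte markers, the receptor pathway, and genes not expected in kidney. Of the last, 0 of 28 passed, with a median of 0.27. Same-numbered arrays did not pair (r of their deviations -0.14 to -0.087). The alternatives were other filters, scalings, offsets, variance models, array weights, the replicate block, the RNA ratio as a term, thresholds and each array left out. No probe sequences were printed.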

Additional observations from a re-analysis of the deposited data

Results flagged for a closer look

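Of 34 groups of 5 arrays (17 probe sets, 2 diets), 3 held an array whose gap to the nearest other was, as a share of the group's range, above the 95% critical value of Dixon's test, where chance gives about 1 in 20 groups. Calorie-restricted replicate 3 read 4.90 for Zap70 1422701_at, against 6.56 to 7.0 on the other restricted arrays. Calorie-restricted replicate 2 read 6.46 for Cd4 1419696_at, against 4.57 to 5.10. Calorie-restricted replicate 1 read 2.69 for Cd8a 1451673_at, against 6.05 to 6.67. All 3 probe sets are near background, and the flags fell on different arrays.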

How the results depend on the processing

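Zap70 was chosen for its difference and its groups do not overlap, so leaving arrays out could not turn the sign of 1439749_at, and the filters, floor, variance models and replicate block leave its difference at 1.03 by construction. It was 0.42 with replicates 4 and 5 of each diet, 1.08 after quantile normalization, 0.93 after median centring, and 0.77 to 1.20 with 1 array left out. Of the 14 other probe sets the filter at the median kept 3 and that at the top 30% kept 0, which left none of them to test. In the other fits, the threshold alternatives aside, 0 passed. The count over all probe sets, 287, was 1371 and 1554 with the filters at the median and the top 30%, 148 after quantile normalization, 52 with a floor of 16, 2 without trend and 552 with robust eBayes. It was 4 with the RNA ratio as a term, 1 when calorie-restricted replicates 4 and 5 were set against every control, 46 with replicates 4 and 5 of each diet, and 2 to 1188 with 1 array left out, each of the 10 arrays moving it. It was 2 and 1726 at thresholds of 0.01 and 0.1. With the replicate number as a block it was 10, and 0 of 5 restricted arrays correlated best with the control of their own number. The cause of these moves was not tested.

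Some differences turned sign, none past the threshold, among them those of Cd4 1427779_a_at and Zap70 1422701_at. With replicates 4 and 5 of each diet, Zap70 1422701_at was -0.021, Cd3g 0.062 and Cd4 1427779_a_at -0.45. When calorie-restricted replicates 4 and 5 were set against every control, Cd3g was 0.25, Cd4 1427779_a_at -0.11, Cd8a 1425335_at -0.20 and Cd247 1426079_at 0.11. With the RNA ratio, Cd3g was 0.17, Cd4 1427779_a_at -0.33, Cd8a 1425335_at -0.33 and Cd8a 1440811_x_at -0.19. With array weights, Cd3e was 0.012, Cd3g 0.019 and Cd247 1452539_a_at 0.16. With a floor of 16, Cd8a 1440811_x_at was -0.0023 and Cd247 1452539_a_at 0.26, which was 0.079 as log2(signal + 50). Averaging its 5 probe sets gave -0.089 for Cd8a. With 1 array left out the ranges were -0.011 to 0.87 (Zap70 1422701_at), -0.38 to 0.23 (Cd3e), -0.20 to 0.17 (Cd3g), -0.016 to 0.34, -0.18 to 0.31 and -0.30 to 0.42 (Cd8a 1444078_at, 1425335_at and 1440811_x_at), and -0.55 to 0.12, -0.55 to 0.21 and -0.59 to 0.68 (Cd247 1426396_at, 1426079_at and 1452539_a_at).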

Other observations

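Neighbouring genes in the RefSeq order were also read. Tmem131, next to Zap70 on chromosome 1, averaged 10.01 ± 0.14 in calorie-restricted kidney and 10.31 ± 0.080 in control kidney (SD, n = 5 each). The difference was -0.30 ± 0.093 (limma adjusted p = 0.119). All its restricted arrays lay below all controls, as in 2.01% of all probe sets. The diets overlapped in every other measured neighbour, those of Cd247, Cd4 and Cd8a included. The neighbour on the other side, 4933424G06Rik, was near background and differed by 0.75 ± 0.80. Beside the CD3 genes, the brightest probe sets of Ube4a and Mpzl2 differed by 0.16 ± 0.13 and 0.11 ± 0.24 (adjusted p = 0.561 and 0.867).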
